A study of Mus musculus with 6 samples.

Results

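The genes described here are 7 transcription factors that set position along the gut: the zinc finger factors Gata4, Gata5 and Gata6, the homeobox factors Cdx1, Cdx2 and Pdx1, and the cut homeobox factor Onecut2. They were taken by name, as every probe set with exactly 1 of these symbols in the platform annotation, which gave 15 of the 45101 probe sets. A probe set is the group of oligonucleotides on the array that reports 1 transcript. Of the 15, 13 lay above 5 (log2) on at least 3 of 6 arrays, the filter used for testing, and each of the 7 genes kept at least 1 probe set. The exceptions were 1 probe set each of Gata4 and Pdx1.

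RNA came from intestinal epithelial cell preparations, with 1 Affymetrix array per mouse. The 3 deficient mice carried a floxed Pggt1b gene (labelled Pggt-Iβ or Pggt-Ibeta) and the VillincreERT2 transgene, a tamoxifen-inducible Cre driven by the promoter of an epithelial actin-binding protein, and the 3 control mice carried the floxed gene without the transgene. Pggt1b codes for a subunit of the prenyl transferase GGTase-I, which attaches a lipid to many small GTPases. All 6 mice were of mixed 129/SV and C57BL/6 background and received 1 mg of tamoxifen on 3 consecutive days, and cells were taken on day 6 from its start. The sources used here do not give age, sex or the length of gut sampled, and the transgene and the deletion cannot be told apart because only the deficient mice carried the transgene. Values are the deposited log2 expression values, and changes are deficient minus control.

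As background, the gut tube is divided early in development by overlapping domains of transcription factors, and several of these domains persist in the adult mouse epithelium. Cdx2, with the related Cdx1, maintains intestinal as opposed to gastric identity, Gata4 is present in the proximal small intestine and absent from the distal ileum, where it restrains ileal genes, and Gata6 acts along the whole length. Pdx1 and Onecut2 are factors of the duodenum, and Pdx1 is also a factor of the pancreas and the antrum of the stomach.

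Between 35.6% and 36.5% of probe sets lay above 5 on each array. Of 8893 genes tested, 10 were higher and 176 lower in deficient arrays (limma adjusted p under 0.05), with a median log2 change of -0.04 over all of them. Pggt1b itself, whose RNA could check the labels, overlapped between groups. It read 9.75, 8.88 and 8.83 in deficient arrays and 9.30, 9.55 and 9.33 in control arrays (limma adjusted p = 0.678), and the sources used here do not say where its probe set lies relative to the deleted part. Directions therefore rest on the labels. Control replicate 2 stood apart in some regional markers. It read 12.73 for Fabp6, the ileal bile acid binding protein, and 5.85 for Slc10a2, the ileal bile acid transporter, against 15.52 and 15.73 for Fabp6 and 8.46 and 9.94 for Slc10a2 in the other two controls. Both genes are named after their values were seen. Of 22 ileal genes tested, 8 (36.4%) were lowest and 3 (13.6%) highest in this array, against 25.7% and 20.0% of all genes tested. Values without this array are given beside the results of the factors and of the region lists.

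For 0 of the 7 factors did limma call a difference between deficient and control arrays, against 2.09% of all genes tested (0.112% higher and 1.98% lower), and 0 of 7 had an unadjusted p under 0.05, against 16.9% of all genes. The deficient and control values of all 7 overlapped, as they did not for 25.7% of genes tested. Of the 13 probe sets taken singly 0 were called, against 1.44% of all probe sets tested (0.0921% higher and 1.35% lower). By mean, 2 factors were higher and 5 lower, with a median log2 change of -0.19, which was 0.00022 without control replicate 2. Limma adjusted p lay between 0.394 for Onecut2 and 0.959 for Cdx2. The intervals differ widely in what they allow: the 95% interval of the log2 change was -0.41 to 0.37 for Cdx2 and -2.08 to 1.34 for Pdx1. Both intervals are those of the probe set used for the gene, and the fainter Cdx2 probe set had a wider one, of -0.05 to 1.56.

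**Figure D1:**
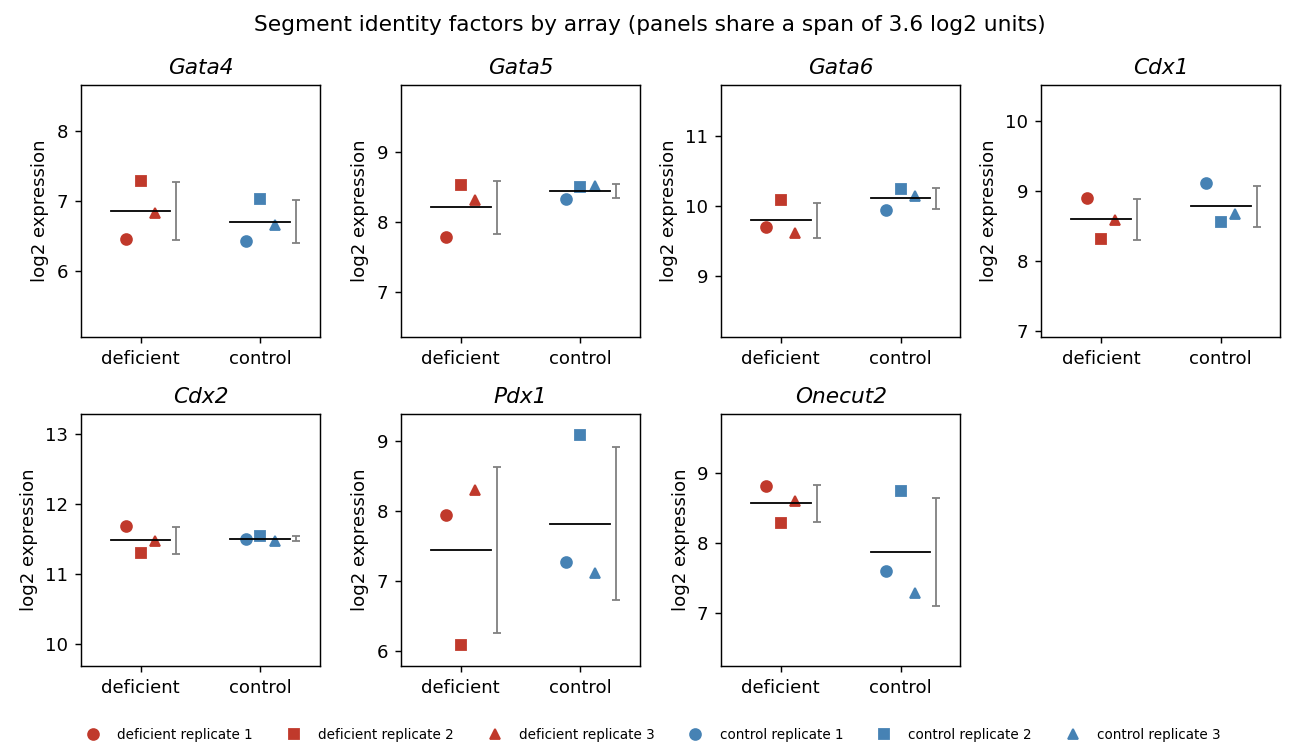
Log2 expression of the 7 factors (y axis, 1 probe set per gene, every panel spanning 3.6 log2 units) in the 3 deficient arrays (left, red) and the 3 control arrays (right, blue). Symbols mark replicates, black lines group means and grey bars 1 SD. The groups overlap in every panel. Cdx2 has the narrowest control spread of the 7, and Pdx1 the widest spread in both groups.

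Among the GATA factors, Gata4 read 6.46, 7.29 and 6.83 in deficient replicates 1, 2 and 3, against 6.43, 7.03 and 6.65 in control replicates 1, 2 and 3. The groups overlapped, with replicate 2 the highest of each. The log2 change was 0.16 ± 0.27 (SE, limma adjusted p = 0.782), with a 95% interval of -0.47 to 0.79, and it was 0.32 with control replicate 2 left out and -0.06 with deficient replicate 2 left out. The other Gata4 probe set stayed between 2.16 and 3.00 on all 6 arrays, near the floor of these data, and was not tested.

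Gata5, a GATA factor of the gut and heart, read 7.78, 8.52 and 8.31 in deficient arrays and 8.33, 8.49 and 8.50 in control arrays. Deficient replicate 1 was the lowest of the 6 and the control arrays lay close together (SD 0.10, n = 3). The log2 change was -0.24 ± 0.22 (SE, limma adjusted p = 0.606), and -0.02 without deficient replicate 1, against -0.21 without control replicate 2. The other Gata5 probe set ran the same way, at 7.24, 8.04 and 8.02 in deficient arrays and 8.05, 7.95 and 8.43 in control arrays (Pearson r = 0.896 with the first over 6 arrays), a change of -0.38 that was -0.47 without control replicate 2.

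Gata6, which in mouse intestine also sustains the crypt, was read by 3 probe sets, and all of them were highest in control replicate 2. The brightest read 9.70, 10.09 and 9.62 in deficient arrays and 9.95, 10.25 and 10.15 in control arrays. Deficient replicates 1 and 3 were the lowest of the 6, and replicate 2 lay among the controls. The log2 change was -0.31 ± 0.19 (SE, limma adjusted p = 0.427), with a 95% interval of -0.76 to 0.14, and -0.25 without control replicate 2. The second probe set read 7.49, 8.29 and 7.89 in deficient arrays and 8.00, 9.23 and 8.18 in control arrays, a change of -0.58 that was -0.20 without control replicate 2. The third read 5.07, 5.47 and 5.24 in deficient arrays and 4.88, 5.98 and 5.23 in control arrays, and its change of -0.10 became 0.21 without that array. The 3 probe sets of Gata6 therefore did not settle a direction once control replicate 2 was left out.

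The homeobox factors are introduced by their genes. Pdx1 and Cdx2 are neighbours on chromosome 5 of assembly GRCm38.p6, with 0 protein-coding genes between them, yet by the probe sets used for the genes they were the least and the most steady of the 7 factors in control arrays. The fainter Cdx2 probe set was not steady there, with an SD of 0.69 (n = 3). Their promoters, from RefSeq on GRCm38.p6, are printed for that contrast, with that of Gata5 beside them. No promoter entry was found for Gata4, and the windows of Gata6, Cdx1 and Onecut2 are not printed. Each sequence runs from 250 bases before the annotated start to 50 after it, on the gene's strand, and capitals mark matches on either strand to CACGTG (an E-box), CCAAT, the GC box GGGCGG or the HNF1 word GTTAAT.
Pdx1, chr5:147269847-147270146, plus strand: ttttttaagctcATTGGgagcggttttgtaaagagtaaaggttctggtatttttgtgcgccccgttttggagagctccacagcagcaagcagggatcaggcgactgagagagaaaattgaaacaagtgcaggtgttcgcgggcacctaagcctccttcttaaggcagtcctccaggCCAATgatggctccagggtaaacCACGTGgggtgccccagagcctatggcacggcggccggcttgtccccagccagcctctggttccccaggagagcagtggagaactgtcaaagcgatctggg
Cdx2, chr5:147307200-147307499, minus strand: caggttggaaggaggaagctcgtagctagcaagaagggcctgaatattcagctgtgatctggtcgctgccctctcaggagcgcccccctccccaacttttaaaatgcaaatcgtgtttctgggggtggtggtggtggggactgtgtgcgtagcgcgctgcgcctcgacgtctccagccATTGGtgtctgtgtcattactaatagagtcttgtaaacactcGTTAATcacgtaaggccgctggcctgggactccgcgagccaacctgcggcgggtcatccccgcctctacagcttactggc
Gata5, chr2:180334630-180334929, minus strand: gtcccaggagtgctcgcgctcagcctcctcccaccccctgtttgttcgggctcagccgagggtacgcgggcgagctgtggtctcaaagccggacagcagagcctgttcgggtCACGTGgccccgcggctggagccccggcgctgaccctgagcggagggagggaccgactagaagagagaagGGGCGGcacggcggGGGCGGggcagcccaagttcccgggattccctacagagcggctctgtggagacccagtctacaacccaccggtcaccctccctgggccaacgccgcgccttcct
CACGTG was matched at 1 place in the Pdx1 and 1 in the Gata5 window and occurred in 7.15% of 32817 promoters of the same length. CCAAT was matched at 2 places in the Pdx1 window and 1 in the Cdx2 window, and occurred in 37.4% of promoters. GGGCGG was matched at 2 places in the Gata5 window, against 35.6% of promoters with any match, and GTTAAT at 1 place in the Cdx2 window, against 7.1% of promoters. GATA words (AGATAA, also with T first or G last) and CDX words (TTTATG, also ending in TT or CG in place of TG) had 0 matches in the 3 windows, and occurred in 29.8% and 29.9% of promoters. These are letter matches in short windows only. The Gata5 window was 69.7% G and C, the Cdx2 window 57.3% and the Pdx1 window 55.3%, where the median promoter had 52.7%.

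Cdx2, the main factor of intestinal identity, read 11.68, 11.29 and 11.47 in deficient arrays and 11.49, 11.54 and 11.47 in control arrays. The control values lay close together, and the deficient values lay on both sides of them. The control SD of 0.04 (n = 3) exceeded that of 2.83% of tested genes, whose median was 0.24, and the deficient SD of 0.19 (n = 3) exceeded that of 35.4% of them. The log2 change was -0.02 ± 0.16 (SE, limma adjusted p = 0.959), and 0.00022 without control replicate 2.

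The second Cdx2 probe set gave a different picture. It read 7.98, 8.14 and 8.06 in deficient arrays and 7.57, 6.52 and 7.83 in control arrays, and every deficient value lay above every control value. This was the 1 of 13 tested member probe sets whose groups did not overlap, against 24.4% of all probe sets tested (10.5% in the higher direction). Its log2 change was 0.75 ± 0.34 (SE, limma adjusted p = 0.326), and the exact two-sided permutation test gave p = 0.1, the smallest that 3 against 3 arrays allow. Without control replicate 2 the change was 0.36. The Pearson r between the Cdx2 probe sets was -0.277 over 6 arrays, a description only, so they did not track each other. The sources used here do not say which parts of the transcript they report.

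Cdx1, which in mouse is expressed from crypt to villus with a rise toward the distal gut, was read by 1 probe set. It was at 8.90, 8.31 and 8.58 in deficient arrays and 9.11, 8.56 and 8.67 in control arrays. Deficient replicate 2 was lowest and control replicate 1 highest, and the groups overlapped. The log2 change was -0.19 ± 0.23 (SE, limma adjusted p = 0.695), and it was -0.02 without control replicate 1 and -0.30 without control replicate 2.

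Pdx1 read 7.95, 6.10 and 8.31 in deficient replicates 1, 2 and 3, against 7.27, 9.09 and 7.12 in control replicates 1, 2 and 3. The lowest value was that of deficient replicate 2 and the highest that of control replicate 2, and the groups overlapped. Its SD was 1.19 in deficient and 1.09 in control arrays (n = 3 each), larger than that of 98.4% and 98.5% of tested genes. The log2 change of -0.37 ± 0.72 (SE, limma adjusted p = 0.813) was 0.30 when deficient replicate 2 was left out and 0.26 when control replicate 2 was, so its sign rested on single arrays. The other Pdx1 probe set stayed between 2.41 and 2.48 on all 6 arrays.

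Onecut2 was read by 3 probe sets that ran together, with Pearson r from 0.904 to 0.971 over 6 arrays. The one used for the gene read 8.81, 8.28 and 8.61 in deficient arrays and 7.60, 8.74 and 7.29 in control arrays. The 3 deficient values and that of control replicate 2 lay together, above the other two controls. The log2 change was 0.69 ± 0.38 (SE, limma adjusted p = 0.394), with a 95% interval of -0.21 to 1.60. Without control replicate 2 it was 1.12, and still did not pass (limma adjusted p = 0.112). The other Onecut2 probe sets changed by 0.44 and 0.81, or 0.97 and 1.20 without control replicate 2, with limma adjusted p of 0.648 and 0.307 in the fit of all 6 arrays. In all 3 the deficient arrays lay wholly above control replicates 1 and 3, which with control replicate 2 left out also held, in the higher direction, for 12.1% of all genes tested. The SD of Onecut2 in control arrays, 0.77 (n = 3), was larger than that of 95% of tested genes, and that of 0.27 in deficient arrays larger than that of 52.3%.

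**Figure D2:**
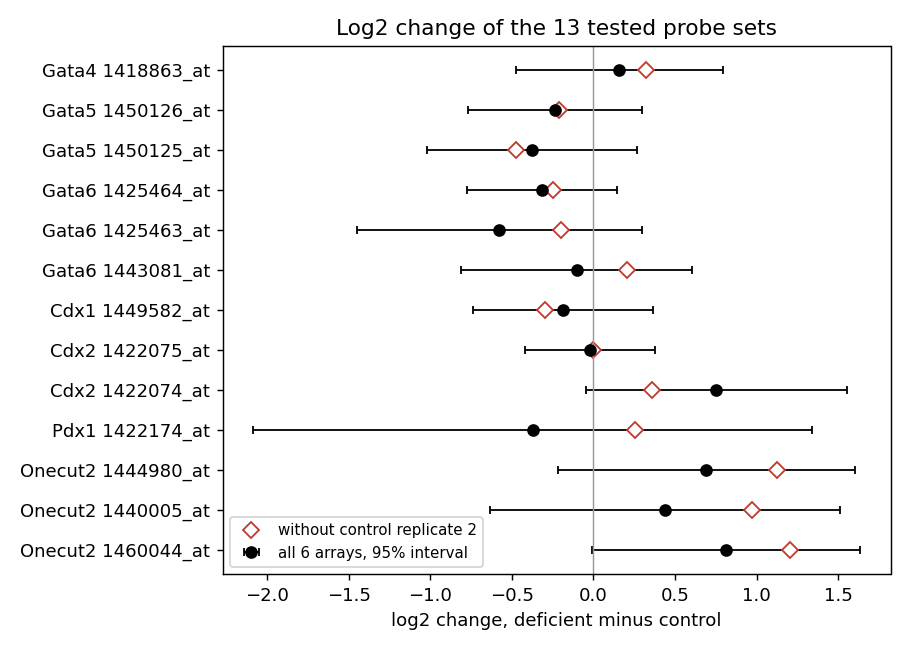
Log2 change, deficient minus control (x axis), of the 13 tested probe sets of the 7 factors (y axis). Black points are the fit of all 6 arrays with its 95% interval, and open red diamonds the difference of means without control replicate 2. Every interval includes 0. Without that array the Onecut2 changes are 0.97 to 1.20, and those of Pdx1, the faintest Gata6 probe set and, at 0.00022, the brighter Cdx2 probe set change sign.

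Read by array, control replicate 2 was the highest of 6 for 5 of the 13 tested member probe sets, the 3 of Gata6, 1 of Onecut2 and that of Pdx1, where 19.6% of all tested probe sets were highest in that array. It was the lowest for 1, the fainter Cdx2 probe set. Deficient replicate 2 was the highest for 3 and the lowest for 3, including the highest Gata4 and the lowest Pdx1 and Cdx1.

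Markers of gut regions were set beside these values. Of 28 tested genes typical of the proximal small intestine, 14 (50%) were highest in control replicate 2, against 20.0% of all genes tested. The mean level of this list, relative to its control mean, was -1.16, -0.33 and -0.00 in deficient replicates 1, 2 and 3 and -0.27, 0.31 and -0.04 in control replicates 1, 2 and 3. The order of the arrays was not that of Pdx1: deficient replicate 1, the lowest for the proximal list, had the third highest Pdx1. For 22 ileal genes the relative means were -0.20, 0.16 and -0.03 in deficient arrays and 0.11, -0.51 and 0.39 in control arrays, with control replicate 2 the lowest. Of the 22, 8 (36.4%) were lowest in control replicate 2 and 3 (13.6%) highest, against 25.7% and 20.0% of all genes tested. The array lowest by the mean of the ileal list was thus also the one highest for Pdx1 and Gata6. The part of regional sampling in the values of the factors was not tested.

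By the comparison of groups, 0 of 28 proximal genes were called, against 2.09% of all genes tested. An unadjusted p under 0.05 was found for 11, against 16.9% of all genes tested. By mean, 20 were lower and 8 higher. Deficient values were wholly lower for 8 and wholly higher for 2, against 16.7% and 9.00% of all genes tested. Of the wholly higher genes, Ffar4, named after its values were seen, passed the filter through the deficient arrays alone. The list median was -0.48, or -0.06 without deficient replicate 1 and -0.31 without control replicate 2. The pair with the smallest p ran in opposite directions: Gstm3, a glutathione transferase, was at -2.37 (limma adjusted p = 0.137) and Cybrd1, the duodenal ferric reductase, at 3.21 (limma adjusted p = 0.170). In the ileal list 1 of 22 fell, where 1.98% of all genes tested were called lower. It was Cubn, the intestinal receptor for the vitamin B12 complex, at 10.97, 11.41 and 10.91 in deficient arrays and 12.18, 12.39 and 12.46 in control arrays (-1.25, limma adjusted p = 0.0237). Cubn lost its call with no filter (limma adjusted p = 0.0807) and kept it in 1 of 6 fits that left out 1 array, that without deficient replicate 2, with limma adjusted p up to 0.115 in the others. The median of the ileal list was -0.03, and -0.27 without control replicate 2.

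Some genes of the colon and of the small intestine were read together in every array. Of 23 colon genes on the array, 6 lay at or below 5 throughout. Car1 and Fabp6, a colonic carbonic anhydrase and the ileal protein above, had values of at least 13.70 and 12.73 everywhere, named after their values were seen. Of 17 colon genes tested, 1 rose, where 0.112% of all genes tested were called higher. It was the actin capping protein Capg (3.38, limma adjusted p = 0.0105). Capg failed without deficient replicate 2 (0.0565) or control replicate 1 (0.0562), and with no filter on low values (0.102). It also failed with the mean of all its probe sets (a change of 1.95, limma adjusted p = 0.0754). The colon list was made with earlier results of these data known, so it is no independent sign of the direction of Capg. The list median was 0.00, and 0.08 without control replicate 2, with relative means of 0.51, -0.34 and 0.20 in deficient arrays and -0.11, 0.21 and -0.10 in control arrays.

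**Figure D3:**
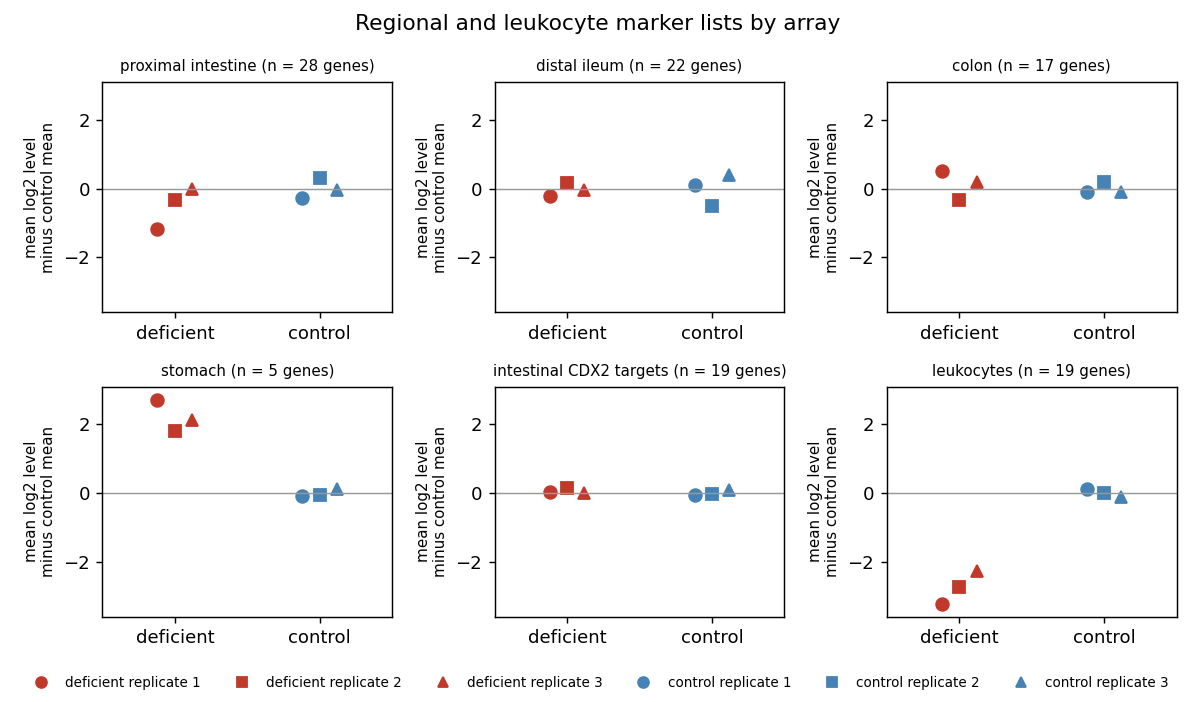
Mean log2 level of 6 marker lists in each array, relative to the mean of the 3 control arrays (y axis, shared scale), with deficient arrays left (red) and control arrays right (blue). Symbols mark replicates and n is the number of tested genes. Control replicate 2 is highest for the proximal list and lowest for the ileal list. The mean of the CDX2 target list lies between -0.06 and 0.15 on all arrays, and that of the leukocyte list is lower on every deficient array. The stomach mean includes Anxa10, which passed the filter through the deficient arrays alone. Some genes in the leukocyte mean, such as Il2rb, passed it through the control arrays alone.

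Genes that CDX2 is known to sustain in mouse intestine were called in 0 of 19 cases, against 2.09% of all genes tested. By mean, 12 were higher and 7 lower, with a median of 0.16 (all genes tested -0.04). The smallest p values were those of the transmembrane mucin Muc13, at 0.41, and the guanylate cyclase receptor Gucy2c, at 0.46 (limma adjusted p = 0.261 and 0.268). The relative means of the list were 0.02, 0.15 and -0.01 in deficient arrays and -0.06, -0.04 and 0.10 in control arrays. These means average members that lay on both sides of 0, from the lactase gene Lct at -0.94 to Gucy2c. Of the 19, 7 had groups that did not overlap, 5 higher and 2 lower. The share over all genes tested was 25.7%, with 9.00% higher and 16.7% lower.

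Stomach genes, which intestinal CDX2 is known to keep off in mouse, were mostly at the floor. Of 19 on the array, 14 lay at or below 5 on every array, among them the gastrokines Gkn1, Gkn2 and Gkn3, the mucin Muc5ac and the proton pump subunits Atp4a and Atp4b. Of the 5 tested, 1 rose, where 0.112% of all genes tested were called higher. It was the annexin Anxa10, at 12.60, 10.22 and 8.91 in deficient arrays and 2.29, 2.51 and 2.82 in control arrays (limma adjusted p = 0.0046, and 0.0684 with no filter). It passed the filter through the deficient arrays alone. Tff1, Ctse and Capn8 also had wholly higher deficient values, as 9.00% of all genes tested did, but were not called. Tff1, a gastric trefoil peptide named after its values were seen, read 8.04, 5.99 and 7.35 in deficient arrays and 5.15, 4.73 and 5.79 in control arrays (1.91, limma adjusted p = 0.164). The fifth tested gene, the ghrelin gene Ghrl, also named after its values were seen, was at -1.14 (limma adjusted p = 0.591). Sox2, the factor of gastric identity, stayed between 2.96 and 3.04. Since Anxa10 was known to have risen when the list was made, the list is no independent sign of its direction.

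**Figure D4:**
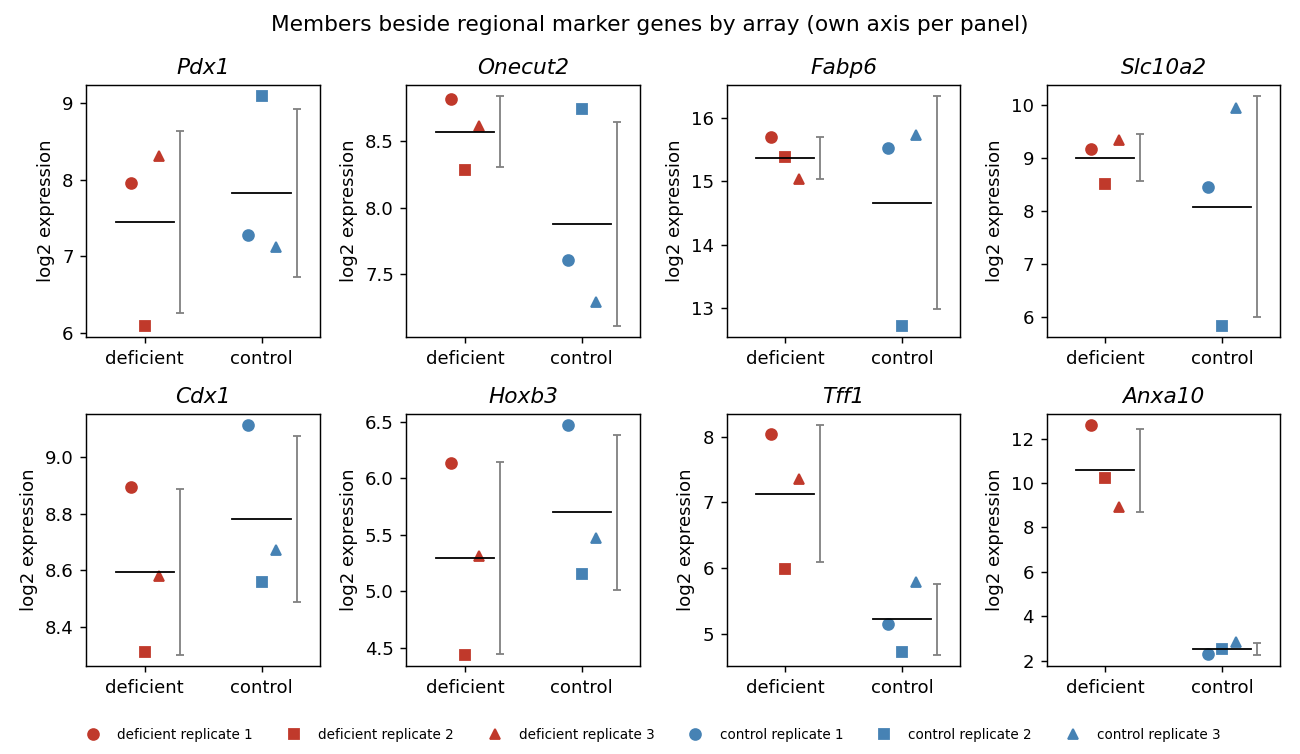
Log2 expression (y axis, own range per panel) of Pdx1, Onecut2, Cdx1 and 5 other genes in deficient (left, red) and control (right, blue) arrays, with group means (black) and 1 SD (grey). Control replicate 2 (blue square) is lowest for Fabp6 and Slc10a2 and highest for Pdx1. Of 22 ileal genes tested, 8 are lowest and 3 highest in control replicate 2. Hoxb3 follows the order of Cdx1 closely, and Tff1 and Anxa10 are higher on all 3 deficient arrays.

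The paralogs Gata1, Gata2, Gata3, Cdx4, Onecut1 and Onecut3 lay at or below 5 on all 6 arrays, the highest reading being 2.87. Gata3, which T cells use, stayed between 2.18 and 2.23. Of 27 HOX and other posterior or gastric factors on the array, 21 lay at or below 5 throughout. Of these factors 3 were tested, with 0 called, against 2.09% of all genes tested. Hoxb13, a factor of the hindgut, read 8.25, 6.42 and 6.21 in deficient arrays and 6.48, 7.17 and 6.24 in control arrays (0.33, limma adjusted p = 0.785). Without deficient replicate 1 its change was -0.32. The TALE factor Meis2 was at -0.44 (limma adjusted p = 0.594).

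Of 16 tested factors that act beside these 7 in gut endoderm, 0 were called, against 2.09% of all genes tested. An unadjusted p under 0.05 was found for 1, against 16.9% of all genes tested. The median was 0.11, with 10 higher and 6 lower by mean. Tcf7l2, a transcription factor of the Wnt pathway, was at 0.64 and Prdm1, which in mouse holds back the maturation of the fetal epithelium, at 1.01 (limma adjusted p = 0.265 and 0.316). Hnf4a, a nuclear receptor of enterocytes, read 12.16, 12.44 and 12.16 in deficient arrays and 11.98, 11.75 and 11.96 in control arrays (limma adjusted p = 0.327), and is named after its values were seen. Maf, also named after its values were seen, went the other way, at -1.02 (limma adjusted p = 0.327). Its deficient values were wholly lower, as they were for 16.7% of all genes tested.

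Genes whose pattern over the 6 arrays was most like that of a factor were listed by Pearson r among the genes tested. With 6 points that share group and array, many genes reach a high r: from 18 genes for Gata4 to 214 for Gata5 lay above 0.9. The closest to Gata4 was Tmem37 (r = 0.989), followed by Patl1 and Pik3cd. For Gata5 they were 4833439L19Rik (r = 0.993), Gin1 and Mogat2, and for Gata6 they were Dnm1 (r = 0.969), Git1 and Mia3. Cdx1 was most like Hoxb3, a HOX factor that read 6.14, 4.44 and 5.31 in deficient arrays and 6.47, 5.15 and 5.47 in control arrays (r = 0.992), then Zfp36l1 and Ptov1. Cdx2 was most like Mfn2 (r = 0.990), Jund and Tlnrd1. Pdx1 was most like Jkamp (r = 0.988), Pet100 and Foxa2, a forkhead factor of endoderm at 6.17, 5.69 and 6.14 in deficient arrays and 5.91, 6.31 and 5.90 in control arrays (r = 0.983). Onecut2 was most like Tnfaip1 (r = 0.984), Clta and Exoc6b.

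Markers of other cells moved with the groups beside these values. In the leukocyte list 15 of 19 tested genes were called lower, against 1.98% of all genes tested. The list median was -2.82 (all genes tested -0.04), with a mean log2 level of 6.10 to 7.07 in deficient arrays against 9.23 to 9.45 in control arrays. By mean, 18 were lower and 1 higher. The latter, Blnk, named after its values were seen, had wholly higher deficient values (1.31, limma adjusted p = 0.197). The called genes included Il2rb, an interleukin receptor chain, at -3.82, and the pan-leukocyte phosphatase Ptprc at -2.65 (limma adjusted p = 0.00126 and 0.0039), with Coro1a at -2.82 and Fcer1g at -2.45. Il2rb, at 3.95, 3.15 and 3.43 in deficient arrays, passed the filter through the control arrays alone, as did some other called genes of the list. Between 7 and 15 were called when 1 array was left out, and 4 with no filter on low values. In bulk RNA, fewer cells of a type and less RNA per cell cannot be told apart. Of 7 stromal genes tested 0 were called, against 2.09% of all genes tested. Their median was -0.56, with Vim at -1.07 and Col1a2 at -1.69 (limma adjusted p = 0.145 and 0.164). An unadjusted p under 0.05 was found for 4, against 16.9% of all genes tested. Deficient values were wholly lower for 4 and wholly higher for 0, against 16.7% and 9.00% of all genes tested. On the array, 9 of 17 stromal genes, including the muscle genes Myh11 and Des, lay at or below 5 throughout. Of 10 epithelial genes 0 were called, against 2.09% of all genes tested. Their median was 0.16, with Krt18 at 0.95 and Krt19 at 0.69 (limma adjusted p = 0.229 and 0.283). The part of these cells in the values of the factors was not tested. Of 12 pancreatic genes on the array (from the Brunner gland and pancreas list) 10, including the acinar genes Cpa1 and Ctrb1 and the factor Ptf1a, lay at or below 5 on every array. The other two were tested: Neurod1 was at -0.41, and the elastase Cela1, at -0.30, read 9.23, 8.03 and 8.24 in deficient arrays and 8.83, 8.98 and 8.60 in control arrays. The part of pancreatic cells in the values of Pdx1 was not tested.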

How the data were processed

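The authors deposited 1 expression value per probe set and array. The range, 0.42 to 16.4, is that of a log2 scale, which no source used here states. These log2 values were made by the authors with Partek 6.5 and GCRMA, named with no role or order per the submitters' processing notes. GCRMA is a background correction and normalization that leaves unexpressed probe sets near a low floor, so changes there depend on its background model. Precision is limited by having 3 arrays a group.

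Here 64 control probe sets were left out. Of the rest, 34945 had 1 gene symbol, 932 several and 9160 none. Each of 18193 genes took its probe set with the highest mean, and the 8893 genes that exceeded 5 (log2) in 3 or more arrays entered a limma fit (version 3.58.1, R 4.3.3) of group alone, with moderated variances and a two-sided Benjamini-Hochberg threshold of 0.05. A second fit tested 16281 probe sets, each on its own, and gave the values of probe sets not used for a gene. That level of 5 is a filter, not a measured background. The fit was tested on simulated data. Intervals are 95% intervals of the fit, and SE is its standard error. Coordinates are printed only for the promoter windows, from RefSeq.

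The 7 factors and all gene lists were chosen with earlier results of these data known. The text names the 7 factors, Pggt1b, their paralogs, up to 4 called genes per list by p (or 2 where none was called), and the 3 genes closest in pattern to each factor. Other genes are marked. The labels call the replicates biological, and no batch is given in the sources used here. Alternatives changed the filter, normalization, variance moderation, array weights, and probe set handling, added a replicate block, or dropped arrays singly. Correlations of same-numbered arrays' deviations from their group means were 0.05, -0.29 and 0.00. They show no sign that the numbers pair the mice, but with 3 arrays a group they cannot exclude it.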

Additional observations from a re-analysis of the deposited data

How the results depend on the processing

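The count of called factors stayed at 0 of 7 genes, and at 0 of 13 probe sets where these were fitted, under every alternative run. Signs were less stable. The Cdx2 change of -0.02 was 0.37 with the mean of its probe sets, 0.075 without deficient replicate 2, 0.00022 when control replicate 2 was dropped, and over the fits that left out 1 array it ran from -0.12 to 0.075. That of Gata4 ran from -0.056 (without deficient replicate 2) to 0.36, that of Pdx1 from -0.80 to 0.30 (0.30 without deficient replicate 2, 0.26 without control replicate 2), and that of Hoxb13 from -0.32 (without deficient replicate 1) to 0.70. Neurod1, at -0.41, was 0.26 with array weights and ran from -0.94 to 0.12 when 1 array was left out, being 0.088 with deficient replicate 1 left out and 0.12 with control replicate 2 left out. The 18 called list members became 4 with no filter, when Anxa10, Capg and Cubn were not called, and 8 to 18 when 1 array was left out. The 186 genes called in all became 85 with no filter, 293 with array weights, 117 with the mean of all probe sets, and 93 to 239 when 1 array was left out. The causes were not tested. With the replicate block the counts were 0 factors, 13 list members (11 of them leukocyte genes) and 141 genes. The block leaves each change as it was in this balanced design. In all, 1 array of 6 was closest to its own number. Cubn lost its call under the block (limma adjusted p = 0.0821). The number of arrays limits what could be called, most of all for Pdx1.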
